A study of Caenorhabditis elegans with 8 samples.

Results

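The regions described here are stretches of the Caenorhabditis elegans genome where all 4 deposited peak lists of a SKN-1 chromatin immunoprecipitation hold a peak. They were found by merging peaks that share at least 1 bp and keeping the merged regions with a peak from each list. Of 35430 merged regions, 454 (1.28%) met this rule. They cover 514 kb. The regions were chosen by the authors' peak calls in these same samples, so their presence in every list and their fold enrichments are described and not tested.

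The worm protein SKN-1, the counterpart of Nrf2 in mammals, binds DNA and regulates transcription. It specifies mesendoderm in the early embryo, and later it is known for the response to oxidative stress and xenobiotics in the intestine and for a role in the paired ASI sensory neurons. Chromatin immunoprecipitation recovers DNA that was crosslinked to a tagged protein, and a peak is a stretch where reads pile up above a modelled background.

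Whole animals, fed OP50 bacteria at 20°C, carried SKN-1 with a green fluorescent protein tag, either wild-type (WT) or as SKN-1gf(lax188), a gain-of-function allele (GF). Each genotype has 2 samples precipitated with a Chromotek reagent (catalogue name gta), and their lists are called WT 1, WT 2, GF 1 and GF 2. Values given 4 at a time below follow that order. The series design states that binding profiles of both forms were to be compared. The 4 samples without antibody have no peak list here and were not analysed. Ages, the promoter of the tagged gene and the origin of the replicates are not given in the sources used here, so the spread between replicates may be technical. Signal from whole animals does not tell which cells it came from.

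The lists differ in length, at 15943, 29541, 25007 and 905 peaks. They hold no read counts, so depth is unknown. The peaks of the WT 2 list carry the name of replicate 1 of WT inside the file, although their positions and values are not those of WT 1. GF 2 stands apart, and it decided which regions are shared. Regions with peaks of WT 1, WT 2 and GF 1 numbered 10915, and 454 of them (4.16%) also held a GF 2 peak. Without GF 2, merging the other 3 lists gave 10918 regions, whereas leaving out WT 1, WT 2 or GF 1 gave 538, 462 and 476. The shared regions took 59.2% of the GF 2 peaks but 3.66% of the WT 1, 1.80% of the WT 2 and 2.06% of the GF 1 peaks. With 2 lists a genotype, a two-sided exact permutation test could give no p below 0.333, so no difference between genotypes was tested.

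Regions near the edge of the rule show how loosely some lists overlapped. In 416 of the 454 regions at least 1 base was covered by all 4 lists, and in 393 such a stretch reached 100 bases. In the other 38 the lists were linked only through a chain of overlapping peaks. One of these lay at the histone gene his-42 and the small nuclear RNA (snRNA) gene F08G2.10 (chromosome II, 13828686 to 13829400). It covered 2.92% of his-42 and 51.3% of F08G2.10, and its fold enrichments were 1.35, 2.66, 3.99 and 1.96. Just outside the rule, the region at chat-1 and wapl-1 on chromosome IV (4446297 to 4446700) missed a GF 2 peak by 28 bp, with folds of 1.42, 1.58 and 1.49 in WT 1, WT 2 and GF 1. The region at daf-41 and ztf-8 on chromosome III (5273559 to 5273900) missed a WT 2 peak by 89 bp, with folds of 1.51, 1.58 and 1.47 in WT 1, GF 1 and GF 2. Of 10583 regions in exactly 3 lists, 4 lay within 100 bp of a peak of the list they lacked.

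Fold enrichment is the authors' value for each peak, a ratio over the background modelled by the peak caller, and here the best peak of a list stands for it in each region. Over the 454 regions its medians were 1.64, 1.73, 1.96 and 1.58, against 1.46, 1.47, 1.55 and 1.51 over all peaks of the same lists. The best of several peaks is higher than a single one by construction, and most regions held 1 peak of a list, from 366 regions in WT 1 to 406 in GF 1. Of the 50 highest peaks, 28%, 22%, 50% and 90% lay in shared regions. Of all peaks of the lists, 3.66%, 1.80%, 2.06% and 59.2% lay there, so in every list the highest peaks were in shared regions more often than peaks at large. The strongest peaks of the WT lists were still mostly elsewhere. In the short GF 2 list most peaks of any strength were here. Read depth can move fold, so values of different lists at 1 region are shown side by side and not as a change between genotypes. GF 1 gave the highest median of the shared regions.

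**Figure D1:**
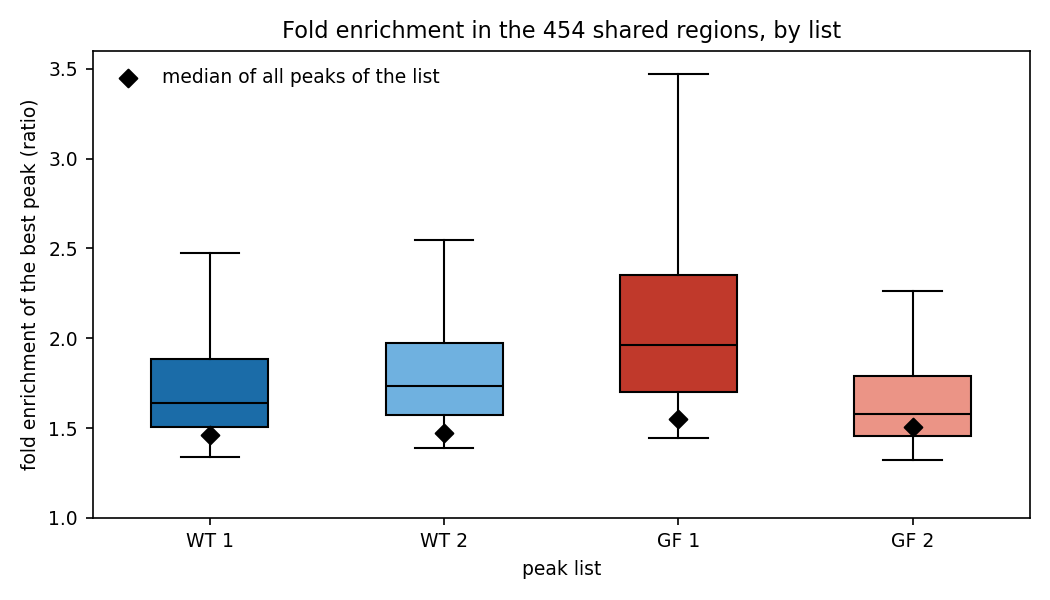
Fold enrichment (vertical axis, ratio) of the best peak in each of the 454 shared regions, by list. Boxes span the quartiles with the median, whiskers run from the 5th to the 95th percentile, and diamonds mark the median of all peaks of the list (1.46, 1.47, 1.55 and 1.51), which lies under the median of the shared regions in each list.

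The order of the regions by fold was more alike between some lists than others. Spearman's rho over the 454 regions was 0.65 between WT 1 and WT 2, 0.63 between WT 2 and GF 1, 0.56 between GF 1 and GF 2 and 0.52 between WT 1 and GF 1. With GF 2 it was 0.33 for WT 1 and 0.40 for WT 2. These values describe regions that share a genome and a caller, and no p applies.

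Ranked by fold within each list, the region that came first over the 4 lists together lay inside tos-1, a gene known as a reporter of alternative splicing, on chromosome V (9342962 to 9344408). Its folds were 3.40, 3.77, 4.65 and 2.81, and it ranked 4, 3, 3 and 3 among the 454. Its 4 summits fell within 13 bp of each other. The second region, on chromosome X (16929629 to 16932075), held the highest fold of the shared regions in WT 1 (4.23), WT 2 (6.20) and GF 1 (5.48), while GF 2 gave 2.34. No protein-coding gene lies at it, and the gene table places it in the non-coding RNA gene C30E1.9. The third was a stretch of 198 bp on chromosome V (16450399 to 16450596) with no gene of any class within 1000 bp, and its folds were 3.38, 3.54, 3.27 and 2.83.

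Next came the histone genes his-59, his-60 and his-62 on chromosome IV (7487570 to 7488751), with folds of 2.64, 3.61, 3.61 and 2.34. Histones of this class are the protein core around which DNA is wound. The region at egrh-2 and lep-2 on chromosome IV (991178 to 991650) had 2.44, 2.71, 3.46 and 2.65, and that inside Y47H9B.2 on chromosome I (11744902 to 11746362) had 2.68, 2.61, 4.75 and 2.10. The other regions among the first 12 lay at acdh-1 with C55B7.3, ahcy-1, rps-4 with Y43B11AR.3, rplp-1 with rpl-27A and arl-13, a gene-free stretch of chromosome IV, and frm-7 with the snoRNA genes C51F7.3 and C51F7.4. GF 1 gave the highest fold in 10 of the 12 and WT 2 in the other two, and GF 2 gave the lowest in 9.

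**Figure D2:**
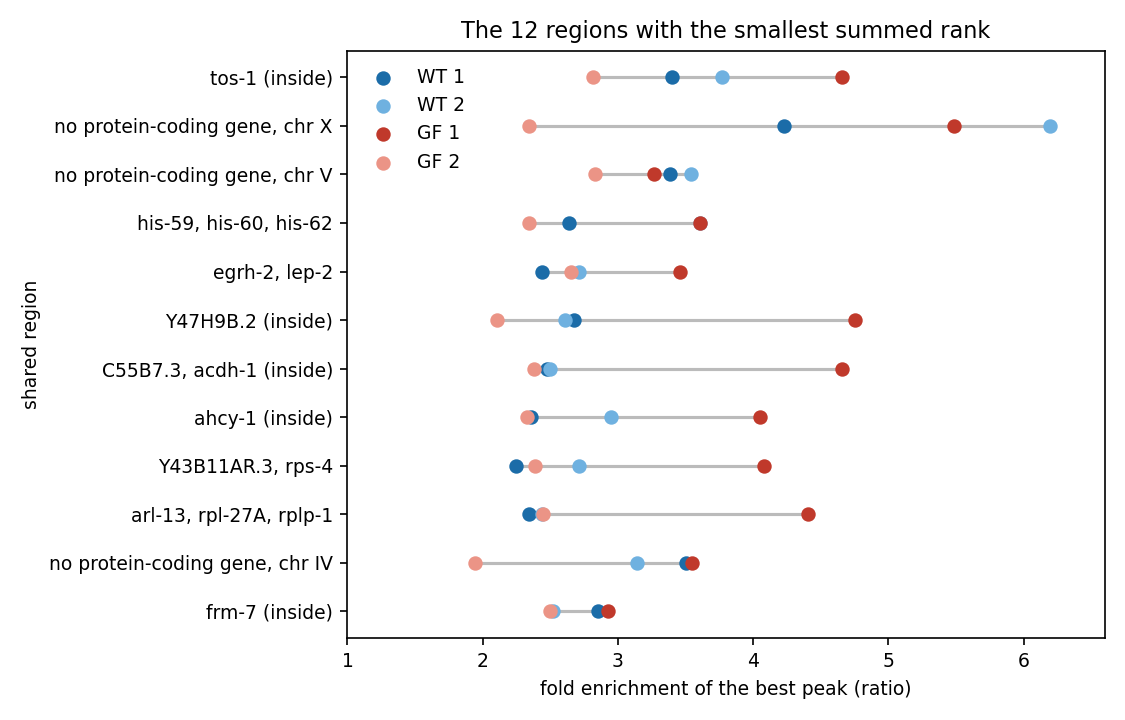
Fold enrichment (horizontal axis, ratio) in each list for the 12 shared regions with the smallest summed rank, named by the genes at an end or around them. Each point is the best peak of 1 list, and the grey line spans them, for example from 2.34 (GF 2) to 6.20 (WT 2) at the region on chromosome X.

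Shared regions were long. Their median length was 904 bp, with quartiles of 483 and 1469 bp and a range from 187 to 5801 bp. The 10461 regions held by WT 1, WT 2 and GF 1 and not by GF 2 had a median of 493 bp. Of the shared regions 108 (23.8%) reached 1500 bp, against 4.96% of those 10461. More lists in a region and stronger peaks both lengthen a merged region, so no test was made.

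The place of the summit inside a region was not part of the rule. The distance between the outermost of the 4 summits had a median of 190 bp, and it was at most 100 bp in 166 regions (36.6%) and over 1000 bp in 52. The median distance between pairs of lists was 29.5 bp for WT 1 and WT 2 and 50 bp for GF 1 and GF 2. Between genotypes it was 42 bp for WT 1 and GF 1 and 39 bp for WT 2 and GF 1, but 78.5 bp for WT 1 and GF 2 and 86.5 bp for WT 2 and GF 2. The pairs with GF 2 thus lay farthest apart, and GF 1 was nearer to each WT list than to GF 2.

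Length went with this spread. In the 122 regions under 500 bp the median spread of the 4 summits was 46.5 bp, and the pairs of lists differed by 11 to 18 bp. In the 108 regions of 1500 bp or more the spread was 954 bp, with pair medians from 87.5 bp for the WT lists to 572 bp for WT 2 and GF 2. The longest region, of 5801 bp, lay over mnk-1, which encodes a protein kinase, on chromosome II (10542615 to 10548415). Its folds were 2.13, 2.12, 1.78 and 1.60, and its summits spread over 4654 bp, so a single binding position cannot be read from it. Another long region covered mak-1, also a kinase gene, on chromosome II (8743576 to 8747562), with folds of 2.07, 2.27, 2.41 and 1.55. In 8 regions the 4 summits fell on the same base, among them the region at the F-box gene fbxa-221 on chromosome X (113768 to 114237), with folds of 3.07, 2.55, 2.61 and 1.91.

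Each region was placed by the median of its 4 best summits. It was called at a gene end where this point lay within 1000 bp outside to 200 bp inside either end of a protein-coding gene. The gene table gives no strand, so starts and ends of transcripts were not told apart, and no exons or introns were assigned. Of the 454 regions 258 (56.8%) lay at a gene end, 125 (27.5%) farther inside a protein-coding gene and 71 (15.6%) at neither. Among the 10461 regions without GF 2 the shares were 29.0%, 55.4% and 15.6%. In each length class gene ends took a higher share of the shared regions than of the regions without GF 2. It was 43.4% against 32.2% under 500 bp, 70.5% against 26.9% from 500 to 1500 bp, and 43.5% against 15.8% at 1500 bp or more. These are shares of regions, and the difference was not tested.

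**Figure D3:**
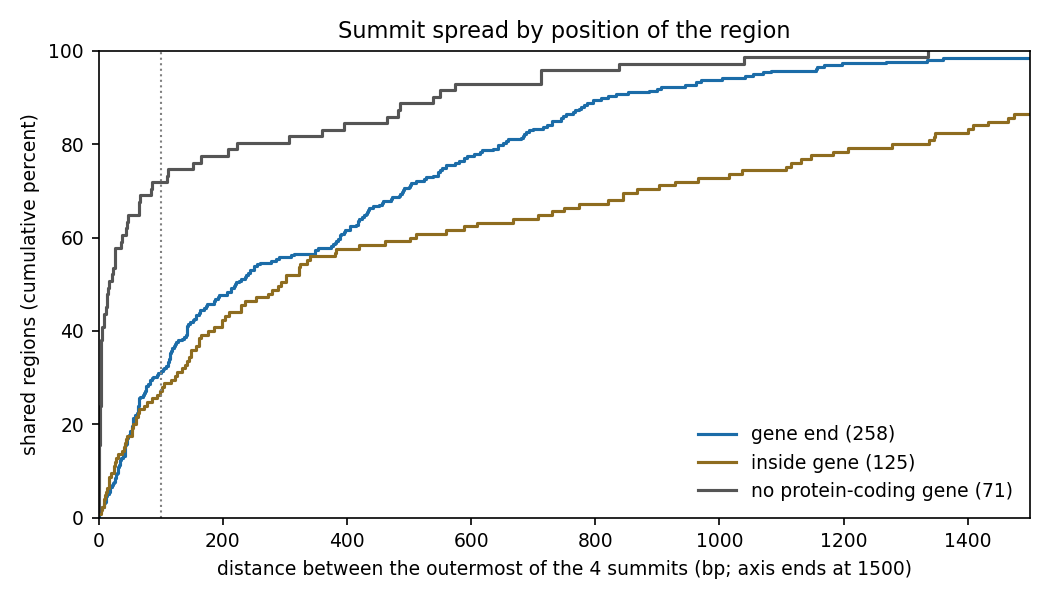
Cumulative percent of shared regions (vertical axis) by the distance between the outermost of the 4 summits (horizontal axis, bp), for the 258 regions at a protein-coding gene end, the 125 inside such a gene and the 71 with no protein-coding gene. The dotted line marks 100 bp, under which 31.4%, 27.2% and 71.8% of the regions lie in that order.

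Cytosolic ribosomal protein genes, which encode the protein part of the translation machinery, had the most genes at shared regions of the 32 gene lists examined. Of 82 such genes 59 (72.0%) had a shared region at an end, against 387 of 19971 protein-coding genes (1.94%). When positions inside a gene were counted too, 70 of the 82 (85.4%) were taken, against 2.95% of all protein-coding genes. The large subunit held 38 of 52 genes of the rpl series and the small subunit 21 of 30 of the rps series. A region can span a short gene whole, and here the shared region covered a median of 97.5% of the gene. This list was known from earlier results of these data to stand out, so its count is no independent evidence.

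The ribosomal genes spread over 60 regions, and 1 region held a pair of them, rplp-1 and rpl-27A. The smallest summed rank among them was that of rps-4 on chromosome IV (7083366 to 7084678), with folds of 2.25, 2.72, 4.08 and 2.39. The region that rpl-27A shares with rplp-1 (chromosome I, 2068898 to 2070608) came next with 2.34, 2.44, 4.40 and 2.45, which is higher in each list except WT 2. The gene rps-17 on chromosome I (6219323 to 6220727) had 2.0, 1.84, 2.93 and 2.64, and rps-27A on chromosome III (3068335 to 3069524) had 1.73, 2.22, 2.64 and 1.81. Both GF lists exceeded both WT lists at rps-17, while the genotypes overlapped at rps-27A. Inside rpl-3 on chromosome III (3867854 to 3869685) the folds were 2.10, 2.22, 2.77 and 2.25, and at rpl-27 on chromosome I (1833112 to 1836004) they were 1.90, 1.98, 3.13 and 2.12. At rps-6 on chromosome I (13952060 to 13953546) the order was the other way, with 2.25 and 2.19 in WT and 1.95 and 1.60 in GF.

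The count of ribosomal genes at gene ends was 65 without WT 1, 63 without WT 2, 54 without GF 1 and 55 without GF 2, although the last setting raised the share of all protein-coding genes to 18.7%. With windows of 500 bp outside and 100 bp inside the gene it fell to 39 of 82. With each list shortened to its 905 highest folds, 4 of the 60 ribosomal regions were still held by all 4 lists, as were 62 of the 454 shared regions. The regions of the 3 long lists that GF 2 did not hold had 3 of the 82 genes at an end (3.66%), against 16.9% of all protein-coding genes. Nearly all ribosomal genes with a region in the long lists therefore had it among the few regions of GF 2. The 12 ribosomal genes with no shared region at an end or inside were rpl-7A, rpl-8, rpl-11.2, rpl-23A.1, rpl-37.2, rpl-41.1, rpl-42, rps-15, rps-18, rps-19, rps-21 and rps-28. Of these, rpl-11.2, rpl-23A.1, rpl-37.2 and rpl-41.1 have a related gene that did have a shared region (rpl-11.1, rpl-23A.2, rpl-37.1 and rpl-41.2). Reads may not be told apart within such pairs, and the part of this in the counts was not tested.

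Other genes of protein synthesis and turnover followed at lower shares. For these lists a gene counts with a region at an end or inside, against 2.95% of all protein-coding genes. Translation factors had 6 of 51, among them eef-1A.1, elongation factor 1-alpha, whose whole gene lay in a region on chromosome III (6969888 to 6971723; 1.97, 2.56, 3.27 and 2.18). Proteasome subunits had 6 of 33 or 18.2% (pbs-1, rpn-11, pas-6, pbs-5, pbs-4 and rpn-5). Aminoacyl-tRNA synthetases had 2 of 33 (6.06%) and mitochondrial ribosomal proteins 3 of 71 (4.23%). With so few genes, these last shares are near the 2.95% of all protein-coding genes. Constitutive chaperones had 11 of 78. One was hsp-1, which encodes a cytosolic Hsp70 (chromosome IV, 17278490 to 17281496), with folds of 3.13, 3.66, 2.68 and 1.80, and another the Hsp90 gene hsp-90 on chromosome V (14685882 to 14688764), with 2.63, 2.99, 2.34 and 1.42. At both chaperone genes both WT lists lay above GF 1 and GF 2 was lowest. Heat-inducible chaperones had 1 of 17, hsp-17.

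**Figure D4:**
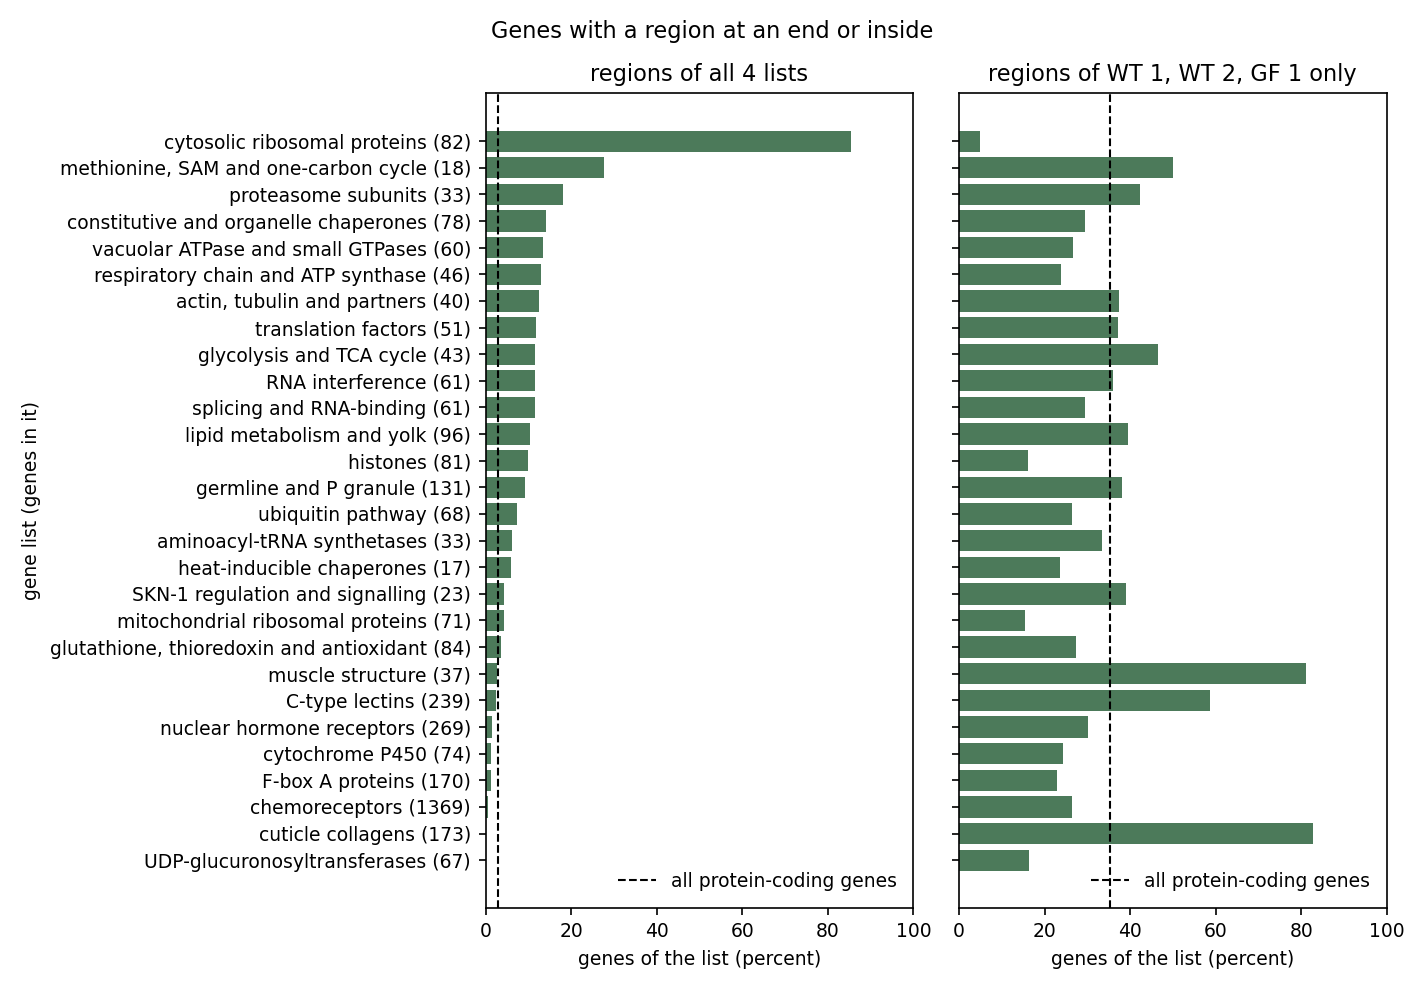
Percent of the genes of each list (horizontal axes) that have a region at an end or inside, for the 454 regions of all 4 lists (left) and the 10461 regions of WT 1, WT 2 and GF 1 without GF 2 (right). The short intestine, hypodermis, pan-neuronal and ASI marker lists are not drawn. The dashed line is the share of all protein-coding genes (2.95% and 35.4%), and ribosomal protein genes stand at 85.4% on the left and 4.88% on the right.

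Several metabolic genes were covered over their length. The vitellogenin gene vit-6, which encodes a yolk protein made in the intestine, lay in the second longest region on chromosome IV (8260928 to 8266623). All 4 lists covered the same 4590 bases of it, with folds of 2.47, 2.13, 3.79 and 2.10. Another yolk gene, vit-2, held 3 separate regions on chromosome X, where GF 1 had 3.45, 2.81 and 2.91 and the other lists lay between 1.47 and 1.95. The gene acdh-1, for an acyl-CoA dehydrogenase, was covered almost whole on chromosome I (6497437 to 6500016; 2.47, 2.50, 4.65 and 2.38). GF 1 was the highest list at each of these genes, and its replicate GF 2 lay with or under the WT lists at vit-6 and acdh-1.

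Against 2.95% of all protein-coding genes, the methionine and S-adenosylmethionine cycle, which supplies methyl groups, had 5 of 18 genes (27.8%) at shared regions. These were ahcy-1 (adenosylhomocysteinase; 2.36, 2.95, 4.05 and 2.33), sams-1 (S-adenosylmethionine synthetase; 1.82, 1.83, 2.85 and 1.64), metr-1, mthf-1 and alh-3. Respiratory chain and ATP synthase genes had 6 of 46, glycolysis and TCA cycle genes 5 of 43, and lipid genes 10 of 96, including the desaturases fat-6 (2.07, 2.54, 2.97 and 1.73) and fat-2. Actin and tubulin genes had 5 of 40 (act-5, act-2, tbb-1, tbb-2 and tba-2). Vacuolar ATPase and small GTPase genes had 8 of 60. The gluconeogenesis gene pck-2, for phosphoenolpyruvate carboxykinase, had 2 regions on chromosome I, and the shorter one (7868957 to 7869507) had unequal folds of 2.30, 4.47, 1.41 and 1.65. The lysosomal protease gene cpl-1 on chromosome V (16592207 to 16595637) had 2.13, 2.35, 3.59 and 1.95, and a tRNA gene lies in the same region.

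Genes of the germline (9.16%) and of RNA interference (11.5%) took part too, against 2.95% of all protein-coding genes. Germline and P granule genes had 12 of 131, with cey-2, a cold-shock domain RNA-binding protein, at the lead (chromosome I, 5619542 to 5620988; 1.98, 1.99, 3.27 and 2.22). They also included the P granule genes pgl-1, pgl-3 and glh-1. RNA interference genes had 7 of 61: prg-1, csr-1, hrde-1, ppw-2 and wago-1, which encode Argonaute proteins, and xrn-2 and rde-4. The region over csr-1 on chromosome IV (7958639 to 7962165) had 1.52, 1.99, 2.24 and 1.60. The lists' summits there lay up to 1763 bp apart, and 3211 bp at hrde-1, so at these genes the lists share a gene body more than a point.

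Some gene families differed in how they stood in the shared regions and in the regions without GF 2. Cuticle collagens, the structural proteins of the worm's outer coat, had 0 of 173 genes at a shared region. In the regions without GF 2 they had 143 (82.7%), against 35.4% of all protein-coding genes there. Muscle structure genes had 1 of 37, the giant muscle gene unc-89, against 30 (81.1%) without GF 2. C-type lectins had 6 of 239 (2.51%) against 140 (58.6%). With positions at gene ends only, the shared regions held 0 collagen, 0 muscle and 3 lectin genes. The regions without GF 2 then held 39 collagen (22.5%), 15 muscle (40.5%) and 74 lectin genes (31.0%), against 16.9% of all protein-coding genes. Most collagen genes there were thus counted only by positions inside them. In the shared regions, at an end or inside, the collagen count lay under the 2.95% of all protein-coding genes. The muscle (2.70%) and lectin shares were near it. The differences were not tested.

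Detoxification genes, a class SKN-1 is known for, had shares near that of all protein-coding genes (2.95%) or a few genes under it. Glutathione, thioredoxin and antioxidant genes had 3 of 84 (3.57%). They were the peroxiredoxin gene prdx-2, gst-1 and gst-26. UDP-glucuronosyltransferases had 0 of 67 and cytochrome P450 genes 1 of 74. Of 8 genes picked afterwards for their link to SKN-1 or to this study (gcs-1, gst-4, gst-10, nit-1, skn-1, wdr-23, daf-7 and drh-1), none had a shared region. By summits within 1000 bp, skn-1 itself was held by the 3 long lists (best folds 1.48, 1.67 and 1.76), as were nit-1 (1.49, 1.47 and 1.59) and daf-7 (1.35, 1.87 and 1.81). The gene wdr-23 was the only one of the 8 held by GF 2, with 1.5 in WT 2, 1.52 in GF 1 and 1.64 in GF 2. Both gcs-1 (1.56 and 1.54) and drh-1 (1.29 and 1.57) were held by WT 2 and GF 1, gst-10 by WT 2 (1.37), and gst-4 by no list. Of all protein-coding genes, 35.4% had a region of the 3 long lists without GF 2 at an end or inside, so 3 of 8 is near that share. With 8 genes, a count of none in shared regions is also near the 2.95% of all protein-coding genes. A missing call at an unknown depth does not show that the protein was absent.

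Chemoreceptor genes had 6 of 1369 (0.438%) at an end or inside, nuclear hormone receptors 4 of 269 (1.49%) and F-box A genes 2 of 170 (1.18%). These shares lay under the 2.95% of all protein-coding genes. Among tissue markers, the intestine list had vit-6 and vit-2 of 8 genes, while the hypodermis, pan-neuronal and ASI lists (5, 5 and 4 genes) had none. These marker lists are too short for their shares to be compared. Histone genes had 8 of 81 (9.88%), of which his-59, his-60, his-61 and his-62 lie together on chromosome IV. Histone genes occur in many near-identical copies, so reads may not be placed to 1 copy. Ubiquitin pathway genes had 5 of 68 (7.35%) and splicing and RNA-binding genes 7 of 61 (11.5%). SKN-1 regulation genes had 1 of 23 (4.35%), tir-1, which lies beside rpl-3.

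Genes for small RNAs (snoRNA, snRNA, tRNA, microRNA and rRNA) were at 67 regions (14.8%), against 2.44% of the 10461 regions without GF 2. A snoRNA gene, whose product guides the modification of ribosomal RNA, had a shared region at 45 of 346 loci (13%). Of their 39 regions 11 were also at a ribosomal protein gene. Of 129 snRNA genes, which serve splicing, 16 (12.4%) had one, of 260 microRNA genes 11 (4.23%), and of 612 tRNA genes 7 (1.14%). Over all classes other than protein-coding the share was 0.906%. Reads at such genes can come from several copies.

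At the gene sup-6, which the table lists as an snRNA gene beside arrd-10 on chromosome II (12944573 to 12945058), folds were 2.0, 3.13, 4.02 and 2.44. The microRNA gene mir-8196.1 on chromosome X (2328908 to 2329253) had 1.93, 1.92, 3.40 and 2.57, with both GF lists above both WT lists. A region among the tandem 5S rRNA and spliced leader genes on chromosome V (17122858 to 17123220) had 2.57, 2.35, 2.17 and 1.87, with the WT lists above the GF lists. Over the 67 regions the median ranks by fold among the 454 were 165, 168, 117 and 101, so the GF lists placed them higher.

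The 71 regions with no protein-coding gene were short, with a median of 453 bp, and their summits were close, with a median spread of 17 bp against 220 bp at gene ends and 293 bp inside genes. In 47 of them no gene of any class lay within 1000 bp. For those 47 the median folds were 2.10, 2.01, 2.03 and 1.52. They occurred in groups in places. Chromosome II held 5 within 3844 bp (8288848 to 8292691) and chromosome IV 4 within 6901 bp (8574269 to 8581169). Across all shared regions, 8 groups of 3 or more with gaps under 5000 bp took up 29 regions.

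Some of these regions had very small q values. At a given fold, the caller's q value becomes smaller as reads grow in number. A region of 256 bp on chromosome IV (11072102 to 11072357) had -log10 q values of 2124, 1933, 1929 and 448, with folds of 3.51, 3.14, 3.55 and 1.94, and it is among the 12 regions of smallest summed rank. A region on the same chromosome (10945752 to 10946183) had 1553, 1935, 1776 and 134. In all, 10 regions passed a -log10 q of 500 in a list, 8 of them with no protein-coding gene, and the highest value in the other 444 regions was 456. One of the 8 lay in the ribosomal RNA repeat near the end of chromosome I (15064111 to 15067552), with folds of only 1.28, 1.59, 1.3 and 1.32. Repeated sequence there was not examined.

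Ranks by fold among the same 454 regions let the lists be set side by side. Both GF ranks were above both WT ranks in 95 regions (20.9%), and both WT ranks above both GF ranks in 103 (22.7%). Of the 60 ribosomal regions 27 had GF above WT and 2 the reverse, with median ranks of 239, 267, 189 and 142. Of the 71 regions with no protein-coding gene 5 had GF above WT and 41 the reverse, with median ranks of 116, 138, 207 and 276. Of the 47 with no gene at all it was 1 and 34. Ranked by -log10 q instead, the ribosomal regions gave 28 and 3, but those with no protein-coding gene 6 and 22 (31.0%, against 22.9% of all shared regions). The members of these classes were not chosen for this order, but 2 lists a genotype allow no test.

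**Figure D5:**
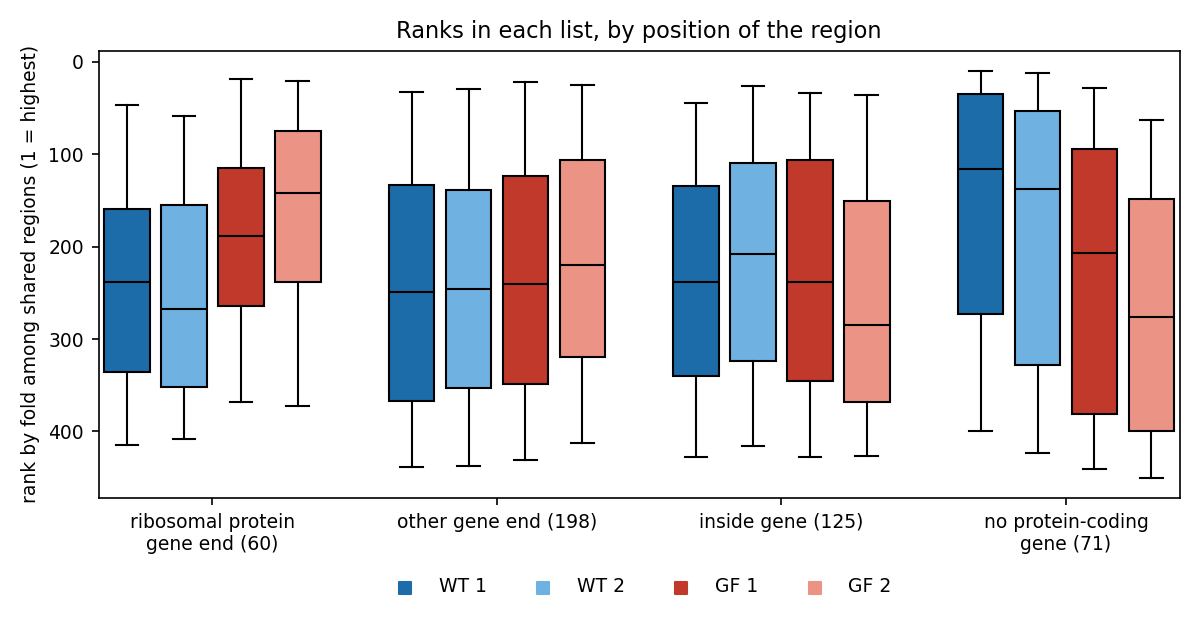
Rank by fold among the 454 shared regions (vertical axis, 1 is the highest) in each list, for regions at a ribosomal protein gene end (60), at another gene end (198), inside a gene (125) and with no protein-coding gene (71). Boxes span the quartiles with the median and whiskers the 5th to 95th percentile, and the median falls from 116 in WT 1 to 276 in GF 2 in the last class.

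The single regions at the extremes of this order included some with weak peaks. The largest gap with GF above WT was inside plpr-1, at the snoRNA gene T06D8.11 on chromosome II (11224138 to 11224954), with 1.23 and 1.40 in WT and 2.15 and 1.67 in GF. No base of it was covered by all 4 lists, and its -log10 q was 1.40 in WT 1, so it was lost at a minimum of 5. The ribosomal gene rps-10 with tmem-39 (chromosome I, 4583632 to 4584304; 1.43, 1.48, 2.46 and 1.60) was the fifth. The largest gap the other way was a gene-free region of chromosome X (4039465 to 4039830; 2.44, 2.06, 1.57 and 1.42). Methionine synthase, metr-1, was the fourth of that kind (chromosome II, 10925108 to 10926254; 1.74, 1.83, 1.51 and 1.43). Both of these were lost at a -log10 q of at least 5, through GF 2 values of 4.44 and 3.24, while rps-10 was kept.

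Chromosome X held 40 of the shared regions (8.81%), against 17.7% of the 10461 regions without GF 2. Chromosome I held 97 (21.4% against 16%). On chromosome X 7 regions lay at a protein-coding gene end, 15 inside such a gene and 18 at neither, and none at a ribosomal protein gene. Their median folds were 1.91, 1.73, 1.99 and 1.51. WT 1 gave them a median rank of 104, against 233 in WT 2, 215 in GF 1 and 293 in GF 2, so the WT lists were not alike there.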

How the data were processed

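Each precipitated sample has its own deposited peak list, and these 4 were analysed. The submitters' processing notes name MACS2 2.2.7.1, BWA 0.7.17, Trim Galore 0.6.4 and SAMtools 1.10, and ce10 as the genome build. Caller settings and its control are not given in the sources used here. A deposited list holds, for every peak, a fold enrichment (a ratio), a -log10 p, a -log10 q (at least 1.3) and a whole-number score, which is 10 times the -log10 q without its decimals in nearly every peak. Peaks were merged, ranked and drawn with Python 3.11.15, NumPy 2.4.6, pandas 2.3.3 and matplotlib 3.10.9. Positions are given from 1 as in the lists. The RefSeq gene table is of assembly WBcel235, not of the lists' build, so it gave only names and neighbourhood, and positions were also moved by 100 bp either way.

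Gene lists were made from gene name patterns (32 lists, tissue markers included). The members and lists were chosen with earlier results of these data known. Regions were named by a fixed rule: the smallest summed rank, the widest, the closest summits, the extremes of common cover, of rank order and of each gene class, and the best-ranked genes of each list. Outside this rule, the ribosomal genes other than the best-ranked ones, genes further down the other lists, cpl-1, the regions of very high -log10 q, the groups of neighbouring regions and the 8 genes linked to SKN-1 or the study were named after their values were seen. Counting genes with a region inside was added after seeing the data. The method was tested on simulated peaks. No sequences are shown, since no sequence table or genome of the lists' build was used here.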

Additional observations from a re-analysis of the deposited data

How the results depend on the processing

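The 454 shared regions numbered 166 when the 4 summits had to lie within 100 bp, 262 with peaks of -log10 q of at least 5 and 62 with each list shortened to its 905 highest folds. The 387 protein-coding genes at their ends became 230 with the stricter q, 233 with windows of 500 bp outside and 100 bp inside, 718 with 2000 and 500 bp, and 590 with positions inside genes, and the narrow windows left 39 of 59 ribosomal protein genes. The summit spread of 190 bp was 115 bp with the stricter q. Leaving out 1 list gave 462 to 10918 regions, 393 to 3728 protein-coding genes, 54 to 65 ribosomal genes and spreads of 76 to 124.5 bp, and the high ends of the first pair came without GF 2. A narrower set of lists has fewer summits, which lowers the spread by construction. Of the 60 ribosomal regions, which were not chosen by fold, 41 remained in 4 lists with the stricter q and 4 with shortened lists. All 12 regions of smallest summed rank remained in both settings. These 12 were chosen for high fold, and the shortened lists keep the highest folds, so their remaining is no independent support. For other settings the cause was not tested. The count of regions with no protein-coding gene that ranked WT above GF (57.7%) was 31.0% with ranks by -log10 q. No paired analysis was possible because no result comes from a test over samples. Depth is unknown, so a missing peak is not a missing site.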
